A study of Homo sapiens with 4 samples.

Results

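The collagens are the family of triple-helical proteins that give the extracellular matrix its structure. Their genes were taken here as every probe set whose single annotated symbol has the form COL, a number, A and a number, which gave 112 probe sets of 43 genes among the 54613 probe sets tested. The 4 samples were SH-SY5Y cells, a line derived from human neuroblastoma and grown with fetal bovine serum. In 2 of them TSPAN8, a tetraspanin of the cell surface, was silenced with small interfering RNA taken up by the Accell delivery system. The other 2 are labelled as transfection controls; what these cells received is not stated further. RNA of all 4 was collected after 72 h and 100 ng of each was hybridised to its own 3'-labelled array. Whether the pair of samples in each group were separate cultures is not stated, and the spread that the tests rest on may be technical only. The cells are a bulk population of a single line, in which fewer producing cells and less RNA per cell cannot be told apart.

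Each collagen chain carries a long stretch with glycine at a regular spacing, and chains wind around each other into a triple helix. Fibrillar collagens (types I, II, III, V and XI and their relatives) assemble into banded fibrils and are made mainly by fibroblasts and other mesenchymal cells. Type IV collagen forms the sheet-like network of basement membranes, type VI forms beaded microfibrils, and fibril-associated collagens decorate the surface of fibrils. Neuroblastoma lines such as SH-SY5Y can hold neuroblast-like cells beside flat, substrate-adherent cells with mesenchymal features. Chains are hydroxylated and folded in the endoplasmic reticulum, exported in enlarged carriers, trimmed outside the cell and cross-linked.

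The silencing itself was measurable. TSPAN8 stood at a log2 value of 6.30 ± 0.072 (SD, n = 2) after knockdown and 7.57 ± 0.072 (SD, n = 2) without it, a fall (limma, adjusted p = 0.0026), and it was the only probe set of the whole table, 0.00183%, to pass an adjusted p of 0.05. The array medians were 6.58, 6.61, 6.58 and 6.58 for knockdown 1, knockdown 2, control 1 and control 2. Knockdown 2 had the highest median and was seldom the highest array among bright probe sets: of the 13654 probe sets at or above the 75th percentile of control signal (a log2 value of 7.96), it was the highest array for 817, against 3867 to 4536 for each of the others. Below that mark knockdown 2 was the highest array for 12639 of 40959 probe sets, against 9065 to 10114 for each of the others. Of the 112 collagen probe sets 106 lay there. Counts over the collagens and over their classes are therefore set beside the same counts over all genes.

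No collagen probe set passed the threshold over all probe sets (0 of 112; limma, smallest adjusted p = 0.60). At an unadjusted p under 0.05, 8 collagen probe sets were above control (7.14%, beside 3.72% of all probe sets) and 2 below (1.79%, beside 4.12%). A value above control was found for 69 of 112 (61.6%, beside 50.0% of all). Both knockdown arrays lay above both control arrays for 30 collagen probe sets (26.8%, beside 17.7% of all), and below them for 11 (9.82%, beside 19.8%). The sizes were small, as in the whole table: the median size of a difference was 0.041 over collagen probe sets, beside 0.047 over all. The difference was under 0.1 in size, on the log2 scale, for 90 of the 112 and reached 0.2 for 3, of COL3A1 (2) and COL1A1 (1). For 82 of the 112 the group means differed by less than the wider of the 2 gaps between replicates. The median gaps were 0.058 in knockdown and 0.062 in control, beside 0.064 and 0.058 over all probe sets. With the probe set of highest mean taken for each gene, 27 of 43 genes had a value above control, with a median log2 difference of 0.016, beside a median of -0.0094 over all 19775 named genes, of which 44.4% were above control. Centring each array on its median lowers every value of knockdown 2, the array of highest median, by more than those of the other arrays. It brought the collagen median to 0.0020 (0.0044 after a second quantile normalization), the 8 probe sets to 4 and the 30 to 26, and raised the 11 to 16. All other probe sets shift in the same way, and their counts after centring are not given here. Before centring, the median of knockdown 2 minus the control mean was -0.00020 over all probe sets. Over the 43 collagen genes it was 0.037, and 0.011 for knockdown 1, beside -0.013 and -0.011 over all 19775 genes.

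Most collagen transcripts gave little signal. In control cells 79 of 112 collagen probe sets ranked below the middle of all probe sets. For 24 of 43 genes even the highest probe set did so, beside 7226 of all 19775 genes. Only 6 probe sets of 5 genes reached the 75th percentile: COL4A2 (percentile 90.3), COL4A1 (89.5), COL1A1 (87.5), COL3A1 (83.0 and 76.1) and COL6A1 (83.0). Probe sets differ in how strongly they bind, so these ranks say where a signal stands on the array and set no order of abundance between genes. All 6 were above control, with a median difference of 0.18, and 4 of them without overlap; among all probe sets as bright, 35.6% were above control and 9.48% higher without overlap. Knockdown 1 was the highest array for 5 of the 6. Their median deviation from the control mean was 0.25 on knockdown 1 and 0.075 on knockdown 2. The remaining 106 collagen probe sets had a median of 0.011, beside 0.0070 over all probe sets below the same mark; 63 of them (59.4%, beside 54.8%) were above control, 26 higher without overlap (24.5%, beside 20.5%) and 11 lower (10.4%, beside 15.5%).

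**Figure D1:**
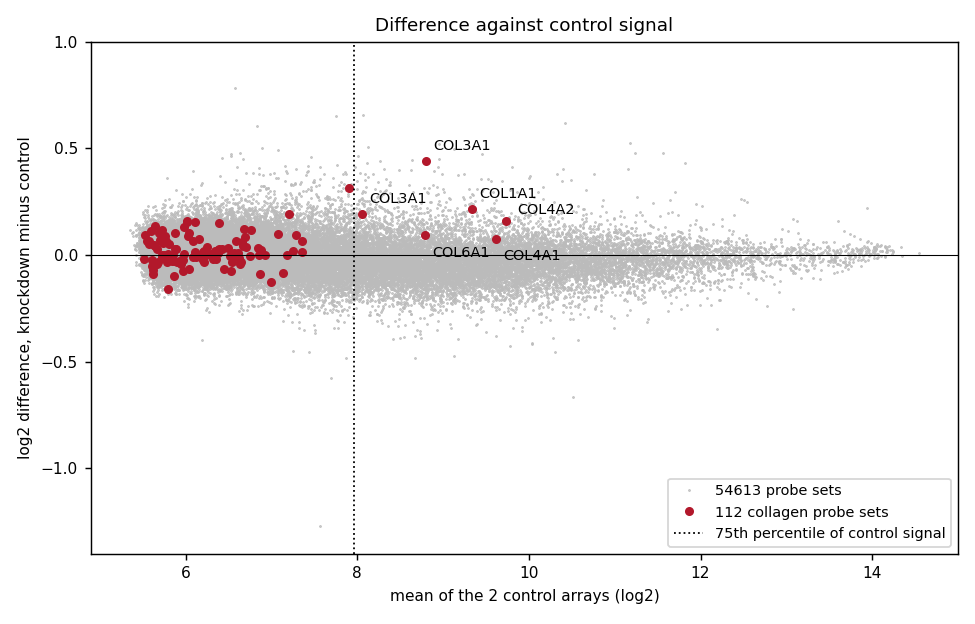
Log2 difference, knockdown minus control, against the mean of the 2 control arrays; grey points are all 54613 probe sets and red points the 112 collagen probe sets. The 6 collagen probe sets right of the dotted line (75th percentile of control signal) lie above 0, between 0.077 and 0.44, while most of the others crowd at low signal around 0.

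COL3A1 encodes the single chain of type III collagen, a fibril component of elastic tissues and of early scar. At its brightest probe set, 215076_s_at, knockdown 1 read 9.46 and knockdown 2 read 9.02, against 8.82 and 8.77 in the controls. The groups did not overlap, but knockdown 1 stood 0.43 above knockdown 2, a gap about as wide as the difference between the groups. The means were 9.24 ± 0.31 (SD, n = 2) and 8.80 ± 0.031 (SD, n = 2), a log2 difference of 0.44 ± 0.12 (SE), or 1.36-fold, with a 95% confidence interval of 0.16 to 0.72 (limma, adjusted p = 0.60). Over all probe sets 24 had a difference at least as high. The probe set 201852_x_at gave 8.36 and 8.08 against 7.99 and 7.81, a difference of 0.31 ± 0.099 (SE). The probe set 211161_s_at gave 8.36 and 8.14 against 8.01 and 8.10, a difference of 0.19 ± 0.078 (SE). In both, knockdown 1 was again the highest array and knockdown 2 lay just above the nearer control array. The dim probe set 232458_at behaved differently between replicates: its 6.10 and 6.12 stood against 5.97 and 5.99, with nearly equal arrays in each group and a difference of 0.13 ± 0.051 (SE). The dimmest, 215077_at, overlapped, at 0.0021. By their suffix 215076_s_at, 201852_x_at and 211161_s_at are of the kind that can bind several transcripts, and the dim 232458_at and 215077_at are not. None of the 5 passed (limma, adjusted p from 0.60 to 1.00). Leaving out knockdown 1 lowered the value at 215076_s_at to 0.23, and leaving out knockdown 2 raised it to 0.66, past the threshold (limma, adjusted p = 6.5e-06), in a fit where the lone knockdown array is assumed to vary like the control arrays.

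Type I collagen, the main fibril of skin, tendon and bone, is built from 2 chains encoded by COL1A1 and 1 by COL1A2 in its usual form. The probe sets of these genes gave very different signals. For COL1A1, 1556499_s_at stood at 9.34 ± 0.17 (SD, n = 2) in control cells, whereas the lowest of its other 4 probe sets lay at 6.01, a spread of 3.33 and the widest within any collagen gene. At 1556499_s_at the values were 9.72 and 9.39 in knockdown and 9.46 and 9.22 in control cells. Knockdown 2 fell between the control arrays, so the groups overlapped, and the difference was 0.22 ± 0.11 (SE; limma, adjusted p = 0.69), from 0.052 to 0.38 with 1 array left out. All 5 probe sets of COL1A1 were above control, from 0.0082 to 0.22, with a median of 0.026. By its suffix each of them is of the kind that can bind several transcripts.

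COL1A2 gave no bright signal at any of its 3 probe sets, which ranked at percentiles 42.0, 32.7 and 21.3 in control cells. At 202403_s_at knockdown 1 and 2 read 6.60 and 6.47, against 6.45 and 6.33 in the controls. The groups did not overlap, although knockdown 2 and control 1 nearly met, and the difference was 0.15 ± 0.068 (SE; limma, adjusted p = 0.65). At 202404_s_at the knockdown values of 6.27 and 6.08 stood against 5.99 and 6.04, a difference of 0.16 ± 0.070 (SE; limma, adjusted p = 0.64). The third probe set, 229218_at, overlapped, at 0.018 (-0.034 to 0.071 with 1 array left out).

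**Figure D2:**
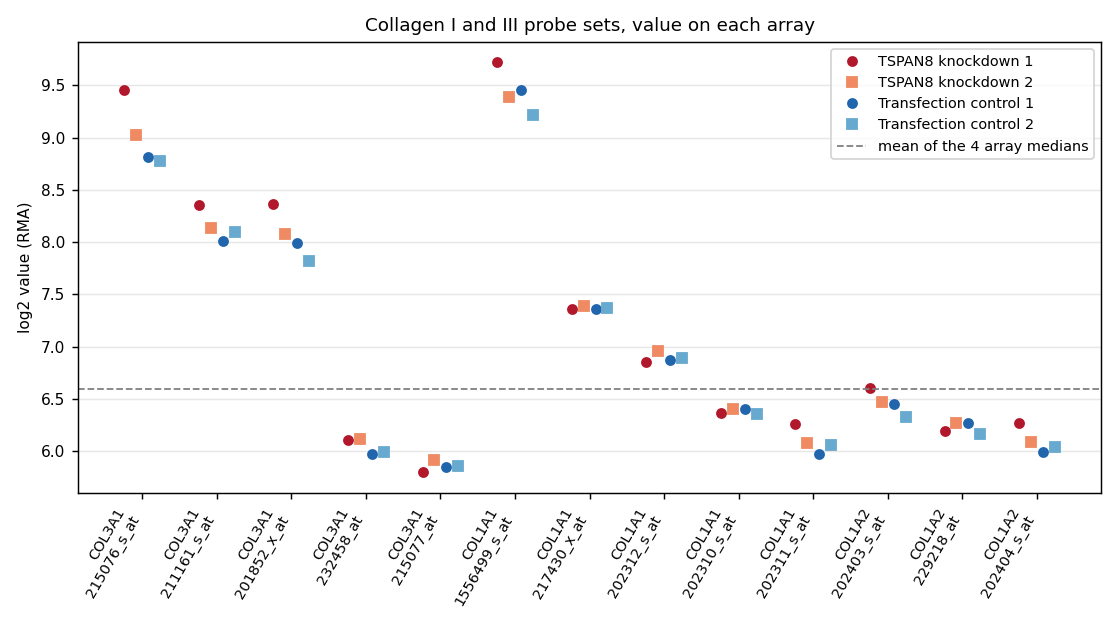
Log2 values of every probe set of COL3A1, COL1A1 and COL1A2 on each of the 4 arrays (red and orange, knockdown 1 and 2; dark and light blue, control 1 and 2), with the mean of the array medians dashed. Knockdown 1 is the highest array at each probe set above a log2 value of 7.5, while all 3 probe sets of COL1A2 lie near or below the dashed line.

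Among the other fibrillar collagens, COL5A1, whose chain sits in the core of type I fibrils and limits their width, followed knockdown 1 only. Its probe set 203325_s_at read 7.56 on knockdown 1, and 7.24, 7.17 and 7.25 on knockdown 2 and the controls. The difference of 0.19 ± 0.098 (SE; limma, adjusted p = 0.68) therefore rested on 1 array, and the other 2 probe sets were at 0.020 and -0.0027. COL5A2, which encodes its partner chain, was at -0.089 ± 0.054 (SE), with 6.76 and 6.79 against 6.90 and 6.83. Its second probe set, 221730_at, overlapped, at 0.012. The cartilage collagens COL2A1, COL11A1 and COL11A2 and the distant relatives COL24A1 and COL27A1, with COL5A3, stayed between -0.065 and 0.061 at every probe set. COL27A1 at 225288_at had close arrays within each group, 5.97 and 5.97 against 6.04 and 6.03, a difference of -0.065 ± 0.050 (SE). Over the 33 fibrillar probe sets 24 were above control (72.7%, beside 50.0% of all), with a median of 0.021. At an unadjusted p under 0.05, 4 were above, each of them of COL3A1 (12.1%, beside 3.72%), and 0 below (beside 4.12%).

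Leaving out knockdown 2 called 5 collagen probe sets, all fibrillar: the 3 brightest of COL3A1 and the ones named above for COL1A1 and COL5A1, at 0.30 to 0.66. In that fit 1026 probe sets of the whole table passed. With any other array left out 0 collagen probe sets passed. These calls compare knockdown 1 with the controls and do not measure how knockdown cultures vary.

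COL4A1 and COL4A2 encode the chains of the common basement membrane network and were the collagens with the highest ranks. The pair is transcribed in opposite directions from start sites 127 bases apart on chromosome 13, so both genes share the interval between them. It is shown because both genes gave bright signals and differences of the same sign. It spans chr13:110307158-110307283 (GRCh38.p14, plus strand, from the RefSeq promoter windows), with the start of COL4A1 to its left, reading away on the minus strand, and that of COL4A2 to its right. Capitals mark CCAAT and GGGCGG, searched on both strands:
COL4A1-COL4A2 interval: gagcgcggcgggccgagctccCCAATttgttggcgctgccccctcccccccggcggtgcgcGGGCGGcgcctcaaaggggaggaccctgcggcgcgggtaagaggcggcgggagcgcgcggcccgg
Of 27305 promoter windows cut to the same 126 bases, 21.9% held CCAAT and 34.6% held GGGCGG on either strand. TATAAA, held by 6.23%, is not in these letters. Nothing was measured here about what binds the interval.

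At its bright probe set, 211980_at, COL4A1 read 9.71 and 9.69 in knockdown and 9.68 and 9.56 in control cells. COL4A2 at 211964_at read 9.86 and 9.94 against 9.85 and 9.62. For both genes the knockdown arrays lay above the control arrays, just over control 1, and control 2 was the low array. The differences were 0.077 ± 0.059 (SE) for COL4A1 and 0.16 ± 0.080 (SE) for COL4A2 (limma, adjusted p = 0.79 and 0.67). Without control 2 they were 0.019 and 0.042. The other divergent pairs, COL4A3 with COL4A4 (start sites 419 bases apart on chromosome 2) and COL4A5 with COL4A6 (380 bases apart on chromosome X), which serve specialised basement membranes such as that of the kidney glomerulus, were dim, at or below percentile 29.4. Their brightest probe sets were at 0.016 and 0.073, and at 0.10 and 0.0035. All 6 type IV genes had a value above control (beside 44.4% of all genes), and 15 of their 19 probe sets did (78.9%, beside 50.0%), with a median of 0.064. All but 2 of the 19 lay below the 75th percentile of signal, where 54.8% of all probe sets were above control. None of the 19 reached an unadjusted p under 0.05, and COL4A6 turned to -0.010 when arrays were centred on their medians.

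The genes of type VI collagen had values of both signs. COL6A1 at 213428_s_at read 9.002 and 8.78 against 8.86 and 8.73; knockdown 2 lay between the controls, and the difference was 0.095 ± 0.084 (SE; limma, adjusted p = 0.83). Of its 8 probe sets 5 were above control (beside 50.0% of all) and 3 below, the lowest being 212091_s_at at -0.076. COL6A2, a neighbour of COL6A1 whose chain joins the same molecule, was the lowest representative of the family. Its values of 6.86 and 6.87 stood against 7.01 and 6.98, tight in both groups, with a difference of -0.13 ± 0.051 (SE; limma, adjusted p = 0.63). Its other probe set was at 0.0093. COL6A3, the third chain of the common form, was at 0.11, and one dim probe set of COL6A6 was at 0.13 with the other at -0.028. COL6A5 and COL7A1, the collagen of the anchoring fibrils under the epidermis, stayed between -0.041 and 0.068.

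The remaining collagens were dim or middling, and the gaps between their replicates varied by class. Among 22 probe sets of the fibril-associated genes (COL9A1, COL9A2, COL9A3, COL12A1, COL14A1, COL16A1, COL19A1, COL20A1, COL21A1 and COL22A1) 12 were above control (54.5%, beside 50.0%), the median was 0.0011 and no value left the range from -0.097 to 0.11. The 2 ends of that range both belonged to COL12A1, a collagen of dense connective tissue. The multiplexins COL15A1 and COL18A1, whose released ends include endostatin for the latter, lay between -0.032 and 0.096. The short-chain collagens COL8A1, COL8A2 and COL10A1 lay between -0.067 and 0.065. Median gaps in knockdown and control were 0.043 and 0.061 for fibril-associated, 0.051 and 0.094 for multiplexin, and 0.098 and 0.057 for short-chain probe sets. Over all probe sets these gaps were 0.064 and 0.058.

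Among the transmembrane collagens, probe sets of the same gene disagreed. COL25A1, found in neurons and in amyloid plaques, read 6.25 and 6.29 against 6.11 and 6.11 at 224388_s_at, a difference of 0.16 ± 0.052 (SE; limma, adjusted p = 0.60), while its others were at -0.0066 and -0.090. COL13A1, a collagen of the neuromuscular junction, read 5.67 and 5.61 against 5.79 and 5.80 at 211343_s_at, a difference of -0.16 ± 0.053 (SE; limma, adjusted p = 0.60), the lowest of all collagen probe sets. Its probe set 211809_x_at went the other way, with 6.78 and 6.81 against 6.70 and 6.65, a difference of 0.12 ± 0.053 (SE; limma, adjusted p = 0.63), and the third was at 0.0017. COL13A1 thus had an unadjusted p under 0.05 in both directions. COL26A1, a little-studied collagen, read 6.86 and 6.90 against 6.76 and 6.75 at one probe set, a difference of 0.12 ± 0.051 (SE), and -0.0065 at the other. Of 35 collagen genes with more than 1 probe set, 20 had members on both sides of 0, 11 had all above and 4 all below. The same count over all genes is not given here, and 50.0% of all probe sets were above control.

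**Figure D3:**
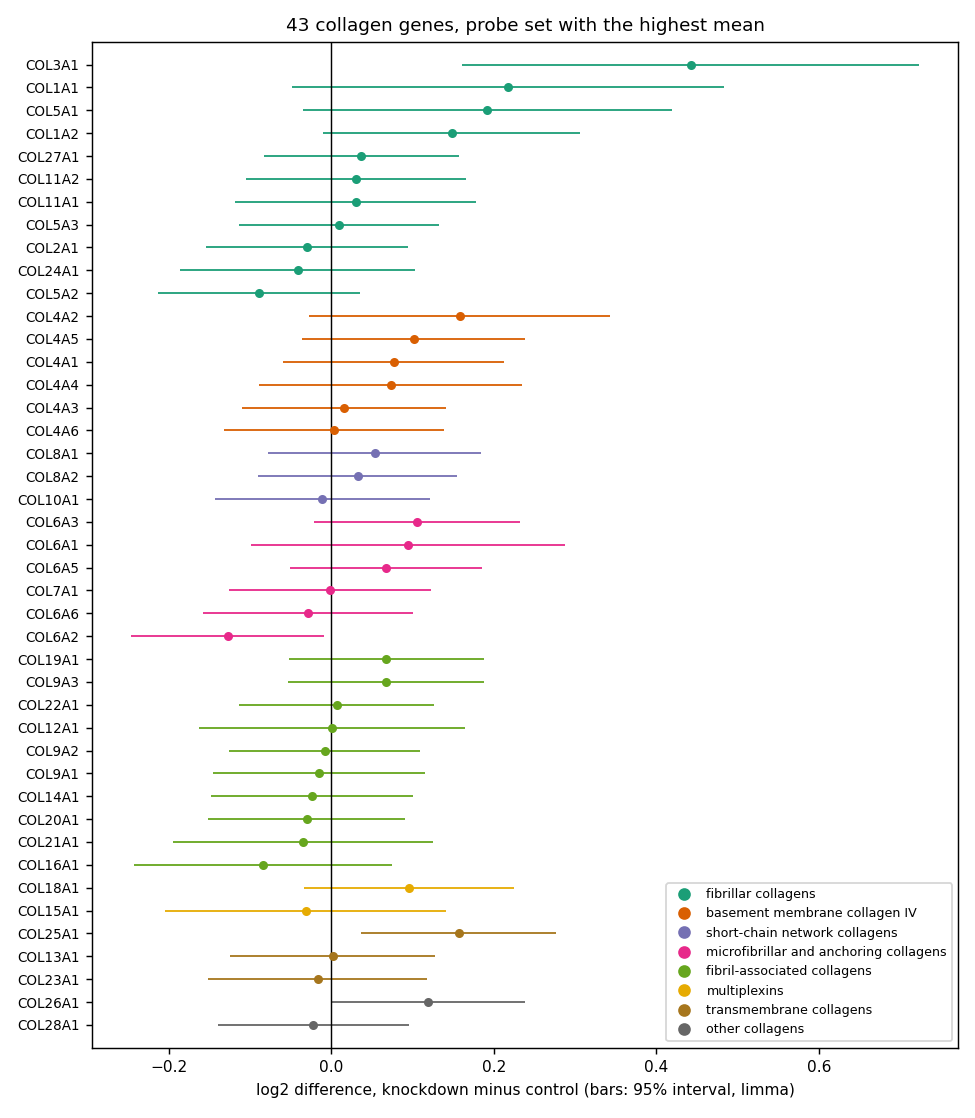
Log2 difference, knockdown minus control, for the probe set of highest mean of each of the 43 collagen genes, coloured by class; bars are 95% confidence intervals from limma. COL3A1 stands at 0.44, and the intervals of COL3A1, COL25A1, COL26A1 and COL6A2 leave out 0 before adjustment.

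The genes that modify, export, process and bind collagen had list medians from -0.047 to 0.016. Each gene was counted by its probe set of highest mean. Over all genes counted so, 44.4% were above control, with a median of -0.0094. In control cells 13 of the 17 measured folding genes and 7 of the 9 export genes reached the 75th percentile, beside 7912 of all 19775 genes. Of all probe sets as bright, 35.6% were above control, with a median of -0.028. Of 17 measured genes for chain modification and folding, 6 were above control and 11 below, with a median of -0.027; 0 were above and 1 below at an unadjusted p under 0.05 (over all genes, 2.39% and 5.57%). The one was PLOD3, a lysyl hydroxylase and glycosyltransferase, at -0.15 ± 0.064 (SE; limma, adjusted p = 0.63). P4HA3, a prolyl hydroxylase subunit, was at 0.10, with -0.10 at its second probe set. SERPINH1, the collagen chaperone HSP47, gave 9.74 and 9.76 against 9.73 and 9.88, a difference of -0.056. Of 9 genes for export, 2 were above control, with a median of -0.047, and TRAPPC2 alone reached an unadjusted p under 0.05. TRAPPC2, which helps release large carriers, was at -0.15 (0.092 at its other probe set), and KLHL12, a ubiquitin ligase adaptor that enlarges them, at -0.12. Of 13 genes for extracellular processing and cross-linking 6 were above control, with a median of -0.018. ADAMTS3, a procollagen N-proteinase, had the highest value, 0.32 ± 0.15 (SE; limma, adjusted p = 0.65), from 9.52 and 8.97 against 9.01 and 8.84, with knockdown 1 far above the other 3 arrays. BMP1, the C-proteinase, was at -0.12, with 4 of its 7 probe sets above control. Of 9 receptor genes 6 were above control, with a median of 0.016. DDR2, a receptor kinase for fibrillar collagen, was at -0.21 ± 0.095 (SE; limma, adjusted p = 0.64), and 1 of its 4 probe sets was above control. ITGA2, an integrin subunit for collagen, was at 0.11. In the last 2 lists 0 genes reached an unadjusted p under 0.05 at the probe set of highest mean. In the 4 lists another probe set of P4HB, MIA3 and DDR2 did. None of the genes in these 4 lists passed over all probe sets.

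Neuroblast identity genes were bright: 7 of 9 measured markers stood at or above the 75th percentile, beside 7912 of all 19775 genes. The 7 included GATA3, ISL1, PHOX2A and STMN2, although TH, the first enzyme of catecholamine synthesis, ranked at percentile 18.3. Of the 9, 2 were above control and 7 below, with a median of -0.045. CHGA, the granule protein chromogranin A, read 10.60 and 10.74 against 10.92 and 10.99, a difference of -0.29 ± 0.063 (SE; limma, adjusted p = 0.58), with a smaller p than any collagen probe set. DBH, which makes noradrenaline from dopamine, read 11.66 and 12.02 against 12.19 and 12.18, a difference of -0.35 ± 0.10 (SE; limma, adjusted p = 0.60), with 0.037 at its other probe set. At the probe set of highest mean, these 2 were the members at an unadjusted p under 0.05, both below control (22.2%). The share below control was 5.57% of all genes and 9.49% of all probe sets at or above the 75th percentile. ELAVL4 reached it at 2 other probe sets. CHGA, DBH, ISL1 and ELAVL4 lay below control without overlap, 4 of 9 (beside 24.2% of all genes and 32.7% of all probe sets at or above the 75th percentile). The summed linear signal of the 9 was 36091 and 36107 after knockdown, against 37878 and 38435 in the controls, without overlap. Over all probe sets at or above the 75th percentile, 35.6% were above control, with a median difference of -0.028.

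Genes that mark fibroblasts are set beside the fibrillar collagens here. Of 10 measured, 8 were above control (beside 44.4% of all genes), with a median of 0.033. In control cells 6 reached the 75th percentile, beside 7912 of all 19775 genes. The ones below control were MMP2 at -0.048 (percentile 93.0) and PDGFRB at -0.0059. FBLN1 was at 0.028, and down to -0.17 at its other probe sets. At the probe set of highest mean, 0 reached an unadjusted p under 0.05, while another probe set of DCN, LUM, PDGFRA and TCF21 did. Knockdown 1 was the highest array for 7 of the 10, beside 5144 of all 19775 genes. DCN, the proteoglycan decorin, read 10.1 and 9.19 against 9.17 and 9.09 (0.50 ± 0.23, SE; limma, adjusted p = 0.65), and THY1, a surface glycoprotein, 9.11 and 8.90 against 8.90 and 8.82 (0.15 ± 0.077, SE; limma, adjusted p = 0.68). LUM, lumican, read 11.8 and 11.3 against 11.4 and 11.1 (0.27 ± 0.14, SE; limma, adjusted p = 0.69). PDGFRA, another bright one, was at 0.00030, with up to 0.38 at its other probe sets. POSTN, FAP and TCF21 lay below the middle of the array, and no value is 0 in this unit. The summed linear signal of the 10 markers was 11374 and 9691 after knockdown, against 10234 and 9180 in the controls, so the groups overlapped and replicate 1 was the higher in each. Schwann cell markers (4 measured, 3 above control, median 0.030, range -0.0073 to 0.071), endothelial markers (6 measured, 3 above control, median -0.0055, range -0.036 to 0.10) and smooth muscle markers (5 measured, 4 above control, median 0.049, range -0.026 to 0.10) had 0 members at an unadjusted p under 0.05 at the probe set of highest mean. Another probe set of FOXD3, a Schwann cell marker, reached it. The share above control over all genes was 44.4%. The part that other cells in the culture, or the share of neuroblast-like cells, play in the collagen values was not tested.

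**Figure D4:**
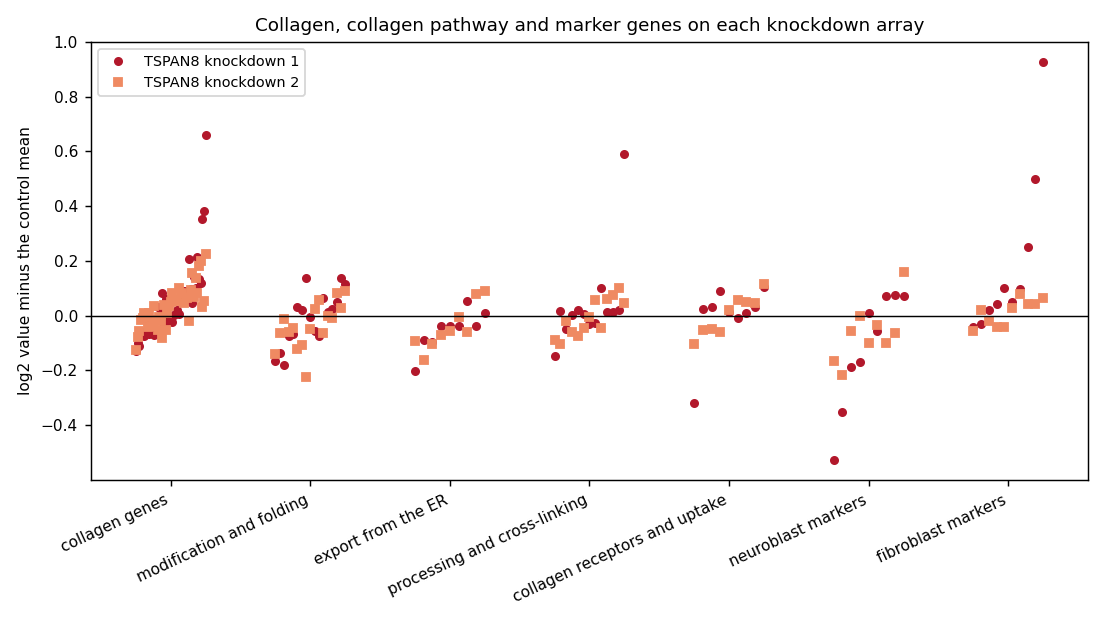
Log2 value on each knockdown array minus the mean of the 2 control arrays, for the 43 collagen genes, 4 lists of collagen pathway genes and 2 lists of cell markers, 1 probe set per gene, ordered by difference within a list. The highest points belong to knockdown 1: COL3A1 at 0.66, ADAMTS3 at 0.59 and DCN at 0.93.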

How the data were processed

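The values are log2 expression, 1 per probe set and array, as the authors deposited them; per the submitters' processing notes they come from RMA (background correction, quantile normalization, probe summary) and R 3.0.1, with no settings given. Log2 values of this kind compress the change of transcripts near background. Scanner files and detection calls were not used here. Of 54675 probe sets, 62 AFFX controls were left out and no filter on signal was applied. Genes were named through the platform annotation; all 43 collagen genes matched RefSeq. Some listed genes were not analysed here.

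The 2 groups were compared with limma 3.58.1 (lmFit, eBayes, R 4.3.3) on all 4 arrays, without covariates, with two-sided tests and Benjamini-Hochberg adjustment over 54613 probe sets at 0.05. The fit was also run on simulated data with independent noise and no shift between arrays. That run cannot check the calls made with these 4 arrays. The number of arrays limits the precision. The members and lists were chosen with earlier results of these data known. Values are given for COL3A1, COL1A2, genes at or above the 75th percentile of control signal, the 8 collagen probe sets per direction with the smallest p, adjacent gene pairs, and pathway list members at an unadjusted p under 0.05 or else the 2 with the smallest p; the marker genes given with values and other genes were named after their values were seen. Alternatives were a second normalization, centring, a trended robust variance, array weights, a replicate block, filters and leaving out each array. Figures were drawn with matplotlib 3.10.9 under Python 3.11.15.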

Additional observations from a re-analysis of the deposited data

How the results depend on the processing

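The count of collagen probe sets past the threshold was 0 with every setting but 2: 5 without knockdown replicate 2 (0 to 5 with 1 array left out) and 1 at an unadjusted p under 0.01 with a difference of at least 0.3, a looser rule. The same 2 settings gave 1026 (1 to 1026) and 148 for all probe sets, against 1, with 25 without knockdown replicate 1, and the replicate block 0. The 8 higher collagen probe sets at an unadjusted p under 0.05 became 4 after median centring, 3 above the median signal and 3 without probe sets that can bind several transcripts (3 to 11 with 1 array left out); the 2 lower became 1 with the replicate block, 1 above the median signal and 0 without the latter probe sets (0 to 2). Without overlap, 30 higher and 11 lower became 10 and 3 above the median signal, 19 and 5 without those probe sets and, chosen after seeing the data, 4 and 0 at or above the 75th percentile; these settings count fewer probe sets. With 1 array left out they ran from 46 to 56 and from 22 to 29, since 1 array fewer can overlap. Above the median signal 33 collagen probe sets were tested, and 69 without those that can bind several transcripts, against 112 otherwise. The counts under these filters are therefore not comparable with the main ones as they stand. The same counts over all probe sets under these settings are not given here. The median over genes was 0.037 above the median signal, 0.011 to 0.037 with 1 array left out, and, added after seeing the data, 0.0051 within replicate number 1 and 0.041 within replicate number 2; it was 0.0044 after a second quantile normalization and 0.0020 after median centring. Reversed single values were COL3A1 215077_at (-0.0094 after a second quantile normalization, -0.012 centred) and COL4A6 211473_s_at (-0.0063 and -0.010). With 1 array left out, COL1A2 229218_at ran from -0.034 to 0.071, COL3A1 215077_at from -0.054 to 0.058, COL6A1 213428_s_at from -0.019 to 0.21, COL4A6 from -0.052 to 0.059, COL4A3 from -0.017 to 0.048 and COL4A4 from -0.022 to 0.17. Here the cause was not tested.

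With the replicate block TSPAN8 stayed at -1.27 with an adjusted p of 0.16 (limma), and 0 collagen probe sets passed. Across all probe sets, the deviations of knockdown 1 and control 1 from their group means correlated at 0.051. With 2 arrays per group the other pair holds the same deviations with the sign turned and adds nothing. No label pairs the samples.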
